A study of Rattus norvegicus with 12 samples.

Results

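Osteocytes and bone-lining cells sense strain through ion channels in their membranes and pass the signal on through channels that join one cell to the next or release ATP. The 9 genes described here belong to that machinery: the force-gated or strain-linked cation channels and ciliary proteins Piezo1, Piezo2, Trpv4, Pkd1 and Pkd2, the gap junction gene Gja1, the pannexins Panx1 and Panx3, and the ATP receptor P2rx7. They were taken by gene name from the 34912 gene names on the array, and all 9 were on it, with 13 probes. The scanner software called a probe well above background or not on each array, and genes were tested if a probe of theirs got that call on 4 or more of the 12 arrays. That held for 22718 genes, 8 of the 9 among them, and not for P2rx7.

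The arrays measured rat calvarial bone 72 h after surgery in animals 10 weeks old. There were 4 arrays of bone ablated with an Er:YAG laser, 4 of bone drilled with a bur, and 4 of non-treated control bone, in which the periosteum had been stripped off but no bone was cut. Both kinds of cut made a defect of 8 by 3 mm, and the laser made it in 3 strokes at an output of 127 mJ per pulse and 20 Hz. Strain and sex are not given in the sources used here, and the labels do not state whether each array had its own animal. The p-values therefore cover the spread among these arrays, which may be technical. RNA was labelled with Cy3 on 1-colour Agilent arrays. Levels below are log2 signal relative to the 75th percentile of the array, so a level of 0 lies at that percentile. Each probe has its own brightness, so levels are compared between arrays and not between genes.

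Piezo1 and Piezo2 form large trimeric channels that open when the membrane is stretched, and Piezo1 is required in osteoblasts and osteocytes of mice for bone to build up under load. Trpv4 is a calcium channel that answers swelling and fluid flow, and polycystin-1 (Pkd1) and polycystin-2 (Pkd2) act together in the primary cilium. Connexin 43 (Gja1) forms the gap junctions and hemichannels that link osteocyte processes. Panx1 forms ATP release channels, Panx3 is the pannexin of osteoblasts and chondrocytes, and P2rx7 is a cation channel opened by extracellular ATP.

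Laser-ablated bone had higher signal of Piezo2, Gja1 and Panx3 than control bone, by 2.17-fold, 1.88-fold and 5.72-fold. Bur-drilled bone had lower signal of Panx1 than control bone, by 2.11-fold. In the limma fit over all genes, with Benjamini-Hochberg adjustment and a threshold of 0.05, 3 of the 8 members were higher and 0 lower in laser-ablated than in control bone, where 22.3% of all genes tested passed (9.26% higher and 13% lower). In bur-drilled against control bone, 0 were higher and 1 was lower, where 26.2% of all genes passed (9.99% higher and 16.2% lower). The median log2 difference of the 8 members was 0.52 in laser against control and 0.42 in bur against control, and that of all genes was 0.02 and -0.000097. No member passed between laser-ablated and bur-drilled bone, where 0% of genes passed and 1 member had an unadjusted p under 0.05. The comparisons with control share the same 4 control arrays.

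The libraries set limits on all of these values. The share of probes called well above background ran from 58.1% to 67.0%. Correlations within a group over all tested genes were 0.975 to 0.984 in laser, 0.979 to 0.983 in bur and 0.948 to 0.980 in control. The control arrays shared 1 slide and the arrays of cut bone another, so slide and surgery cannot be told apart, nor can the slide column and the kind of surgery. Control replicate 3 stood apart from its group, at 6.67 on the first principal component, against 55.5 to 122 for the other control arrays and -53.1 to -7.43 for the arrays of cut bone.

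**Figure D1:**
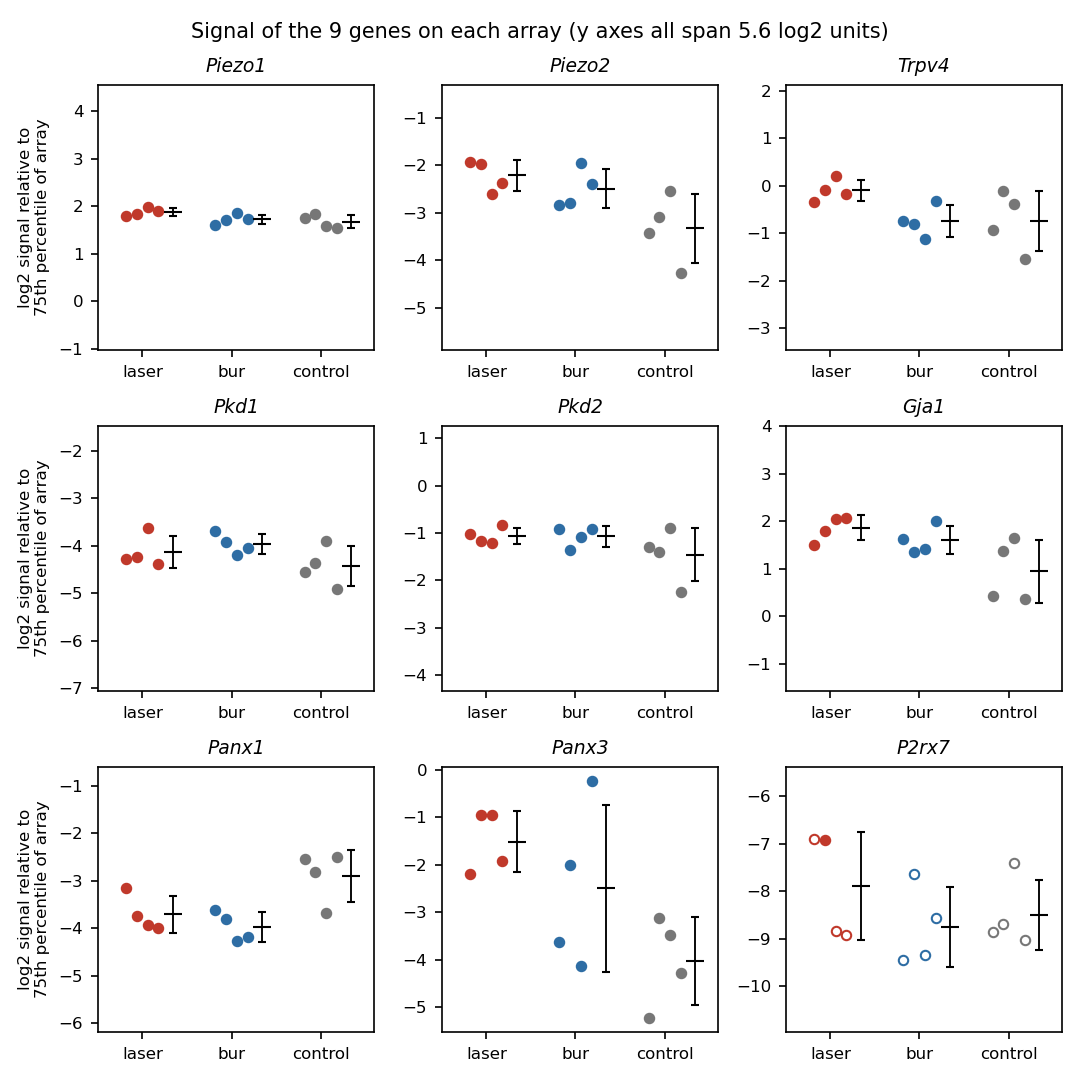
Log2 signal relative to the array's 75th percentile (y) of each of the 9 genes on the 4 laser, 4 bur and 4 control arrays (x, replicates 1 to 4 from left to right within a group), with filled points where the probe was well above background and the mean and SD of each group beside its points. The laser values of Panx3 all lie above its control values, the bur values of Panx3 spread over 3.91 log2 units, and P2rx7 was well above background on 1 array.

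Among the stretch-gated channels, Piezo1 was read by 1 probe spotted 10 times on each array. Its log2 levels were 1.81, 1.84, 2.00 and 1.91 in laser-ablated bone, 1.61, 1.71, 1.85 and 1.73 in bur-drilled bone, and 1.76, 1.83, 1.58 and 1.54 in control bone. All 12 values lay within a narrow band, with 3 laser arrays above every control array and the bur and control arrays mixed. The log2 difference was 0.21 (95% interval -0.04 to 0.46, limma adjusted p = 0.203) in laser against control, 0.05 (-0.21 to 0.30, adjusted p = 0.789) in bur against control and 0.16 (-0.09 to 0.41) in laser against bur. The SD of the 10 spots within an array was 0.0466 to 0.0811, and the SD between arrays was 0.085 in laser, 0.099 in bur and 0.14 in control.

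Piezo2, the stretch channel of touch and proprioceptive neurons, was read by 4 probes. The brightest had log2 levels of -1.93, -1.97, -2.60 and -2.37 in laser-ablated bone, -2.83, -2.80, -1.96 and -2.40 in bur-drilled bone, and -3.42, -3.09, -2.54 and -4.28 in control bone. In laser-ablated bone 3 arrays were above every control array, and laser replicate 3 fell just under control replicate 3. The level in laser-ablated bone was higher than in control bone by 1.12 ± 0.34 on the log2 scale (SE, n = 4 each, limma adjusted p = 0.0376). The exact two-sided permutation test of that single gene gave p = 0.0571, where the smallest p for 4 against 4 is 0.0286. In bur-drilled against control bone the difference was 0.83 (95% interval 0.10 to 1.57, adjusted p = 0.0859).

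The other Piezo2 probes lie elsewhere in the gene, and the sequences of the other tested ones are shown because they read separate stretches of it. The brightest probe lies at chr18:59147634-59147693 (rn4, minus strand, as the array files give it), and the next probe lies 568 bases upstream of it. That probe reads open in its first frame to a stop codon, in capitals. The last of the 3 tested lies 58.7 kb upstream of the brightest, open in its first frame throughout.
Piezo2 probe ending at a stop codon, chr18:59148262-59148321 (rn4, minus strand): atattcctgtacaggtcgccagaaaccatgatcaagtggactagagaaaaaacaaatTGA
Piezo2 upstream probe, chr18:59206348-59206407 (rn4, minus strand): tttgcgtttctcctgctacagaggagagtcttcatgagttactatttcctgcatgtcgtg

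The Piezo2 probe ending at the stop codon had log2 levels of -4.74, -4.52, -5.26 and -4.84 in laser-ablated bone, -5.62, -5.19, -4.51 and -4.91 in bur-drilled bone, and -6.02, -5.60, -5.89 and -6.02 in control bone. All 4 laser arrays were above every control array, as in 8.87% of all tested genes by their brightest probe. Bur replicate 1 fell just under control replicate 2. In a limma fit over all 29775 tested probes it was higher by 1.04 ± 0.23 in laser against control (SE, adjusted p = 0.0186) and by 0.82 ± 0.23 in bur against control (adjusted p = 0.0282). The upstream probe was well above background on 4 laser, 3 bur and 1 control arrays, and passed the background filter mostly through cut bone. No difference from the limma fit is therefore given for it. Its log2 levels ran from -6.16 to -5.48 in laser-ablated bone, from -7.19 to -5.79 in bur-drilled bone and from -8.79 to -6.36 in control bone. The fourth probe was well above background on 1 bur array and was not tested. In the authors' deposited table the brightest probe had a log2 change of 0.98 in laser against control (adjusted p = 0.0189) and of 0.80 in bur against control (adjusted p = 0.0358), which passed there and not in the limma fit above. The stop-codon probe had 0.50 (adjusted p = 0.0328) and 0.41 (adjusted p = 0.0626) in the authors' deposited table. The upstream probe, near background in control bone, had 0.42 (adjusted p = 0.0648) and 0.16 (adjusted p = 0.433) there.

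**Figure D2:**
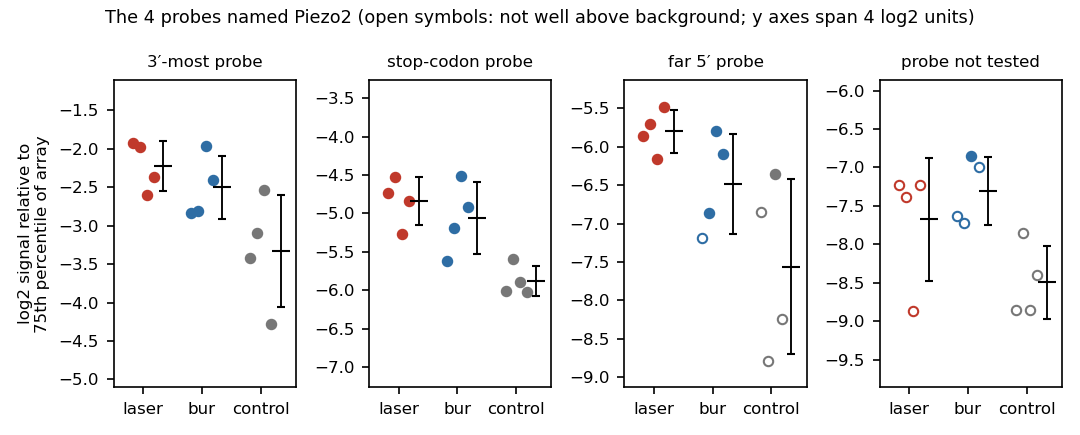
Log2 signal relative to the array's 75th percentile (y) of the 4 probes named Piezo2 on the laser, bur and control arrays (x): from left the brightest, the one ending at the stop codon, the upstream one and the one not tested, filled where well above background, with the mean and SD of each group. In the stop-codon probe all 4 laser arrays lie above all 4 control arrays, as in 8.87% of all tested genes by their brightest probe. In the brightest and the stop-codon probe the laser mean is the highest and the control mean the lowest. The upstream probe was well above background on 1 control array.

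Trpv4 was the member whose laser and bur levels stood furthest apart relative to their spread. Its log2 levels were -0.33, -0.09, 0.21 and -0.18 in laser-ablated bone, -0.74, -0.81, -1.12 and -0.31 in bur-drilled bone, and -0.92, -0.11, -0.38 and -1.55 in control bone. Only bur replicate 4 reached into the laser values, and the control arrays ran from below every bur array to among the laser values. The difference was 0.65 in laser against bur (95% interval 0.02 to 1.27, unadjusted p = 0.0436, limma adjusted p = 0.9998, exact two-sided permutation p = 0.0571). It did not pass in laser against control (0.64, adjusted p = 0.120) or in bur against control (-0.01, 95% interval -0.63 to 0.62, adjusted p = 0.991).

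The polycystins did not pass in any comparison. Pkd1 ranged from -4.38 to -3.63 in laser-ablated bone, from -4.20 to -3.68 in bur-drilled bone and from -4.90 to -3.89 in control bone, so that all groups overlapped. Its difference was 0.29 in laser against control (95% interval -0.21 to 0.80, limma adjusted p = 0.365) and 0.46 in bur against control (-0.04 to 0.97, adjusted p = 0.150). A second Pkd1 probe, which spans 262 bases of the genome, gave 0.33 and 0.24. Pkd2 ranged from -1.21 to -0.84 in laser-ablated bone, from -1.37 to -0.91 in bur-drilled bone and from -2.23 to -0.89 in control bone. Its difference was 0.39 in laser against control (-0.14 to 0.92, adjusted p = 0.255) and 0.38 in bur against control (-0.15 to 0.92, adjusted p = 0.257).

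Gja1, the connexin of the osteocyte network, had log2 levels of 1.51, 1.80, 2.05 and 2.08 in laser-ablated bone, 1.62, 1.36, 1.43 and 2.02 in bur-drilled bone, and 0.42, 1.38, 1.66 and 0.36 in control bone. Control replicates 1 and 4 lay far below all 8 arrays of cut bone, whereas control replicates 2 and 3 lay among the bur arrays. The level in laser-ablated bone was higher than in control bone by 0.91 ± 0.29 (SE, n = 4 each, limma adjusted p = 0.0457, exact two-sided permutation p = 0.0571). With the replicate number as a block, the adjusted p was 0.0548. The difference was 0.65 in bur against control (95% interval 0.01 to 1.30, adjusted p = 0.115) and 0.26 in laser against bur (-0.39 to 0.90). In the authors' deposited table Gja1 had a log2 change of 1.03 in laser against control (adjusted p = 0.0149) and of 0.76 in bur against control (adjusted p = 0.0411).

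Panx1 was the tested member whose estimates against control were below 0 in both kinds of cut bone. Its log2 levels were -3.14, -3.73, -3.93 and -4.00 in laser-ablated bone, -3.61, -3.80, -4.27 and -4.18 in bur-drilled bone, and -2.55, -2.82, -3.68 and -2.50 in control bone. Control replicates 1, 2 and 4 were above all 8 arrays of cut bone, and control replicate 3 was among them. The difference was -1.08 ± 0.28 in bur against control (SE, n = 4 each, limma adjusted p = 0.0202, exact two-sided permutation p = 0.0571). In laser against control it was -0.81 ± 0.28 and missed the threshold (adjusted p = 0.0582), but the fit with a block for replicate number gave an adjusted p of 0.0226, under it. With normexp background correction in place of the scanner's, the differences were -0.66 in bur against control (adjusted p = 0.0163) and -0.52 in laser against control (adjusted p = 0.0423). In the authors' deposited table Panx1 had a log2 change of -0.77 in bur against control (adjusted p = 0.00802) and of -0.63 in laser against control (adjusted p = 0.0196).

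Panx3 had log2 levels of -2.20, -0.96, -0.96 and -1.92 in laser-ablated bone, -3.62, -2.00, -4.14 and -0.23 in bur-drilled bone, and -5.23, -3.13, -3.47 and -4.27 in control bone. All 4 laser arrays were above every control array, as in 8.87% of all genes, and the bur arrays ran from among the control values to above every laser value. The level in laser-ablated bone was higher than in control bone by 2.52 ± 0.76 (SE, n = 4 each, limma adjusted p = 0.0379, exact two-sided permutation p = 0.0286). With the normexp setting it was 1.63 (adjusted p = 0.0469). In absolute size the difference was at the 99.4 percentile of all genes tested. In bur against control the difference was 1.53 (95% interval -0.14 to 3.20, adjusted p = 0.152), with an SD of 1.76 among the bur arrays. In the authors' deposited table Panx3 had a log2 change of 1.98 in laser against control (adjusted p = 0.0228) and of 1.19 in bur against control (adjusted p = 0.114).

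P2rx7 had log2 levels of -6.89, -6.91, -8.84 and -8.92 in laser-ablated bone, -9.44, -7.63, -9.33 and -8.57 in bur-drilled bone, and -8.86, -8.68, -7.41 and -9.02 in control bone. It was well above background on laser replicate 2 and on no other array. No difference is given for it, since the remaining values were not well above background.

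**Figure D3:**
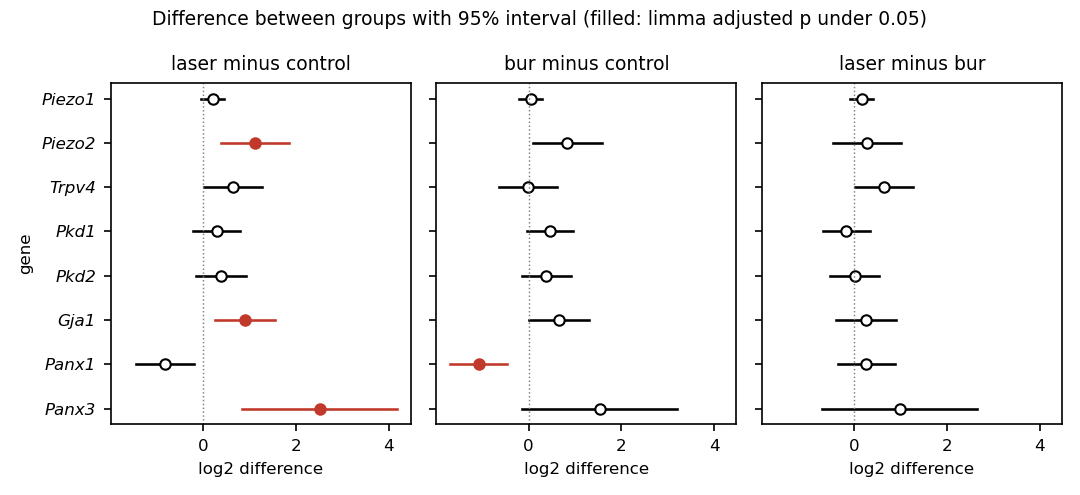
Log2 difference (x) with its 95% interval from the limma fit for the 8 tested genes (y) in laser minus control, bur minus control and laser minus bur, filled where the adjusted p was under 0.05. Piezo2, Gja1 and Panx3 pass in laser minus control, Panx1 passes in bur minus control, and the interval of Trpv4 alone leaves out 0 in laser minus bur.

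Markers of some cells in the bone differed too. Of all tested genes, 9.26% were higher and 13% lower in laser against control, and 9.99% and 16.2% in bur against control. Of 5 tested osteocyte markers, 4 were higher in laser-ablated than in control bone (Dmp1, Phex, Mepe and Pdpn, by 1.56, 1.61, 1.37 and 1.41) and 1 in bur-drilled bone, and Sost differed by 0.02 (adjusted p = 0.969) in laser against control. The mean of that list, each gene centred on its own mean, was -0.08 to 0.97 on the laser arrays, -0.44 to 0.41 on the bur arrays and -0.99 to -0.35 on the control arrays. Of 6 osteoblast markers, 2 were higher in laser-ablated and 0 in bur-drilled bone, with list means of 0.16 to 0.52 in laser, -0.33 to 0.23 in bur and -0.40 to 0.03 in control. Of 3 tested chondrocyte markers, 1 was higher in laser-ablated bone and 0 in bur-drilled bone, and of 5 fibroblast markers 1 was higher in each. Of 5 tested osteoclast markers and 4 tested skeletal muscle markers, 0 passed in either comparison. These stand beside the higher Gja1, Panx3 and Piezo2, and their part in those differences was not tested. In bulk bone, fewer cells of a type and less RNA per cell cannot be told apart.

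Beside the lower Panx1 stood markers of marrow and blood cells. Of all tested genes, 13% were lower in laser against control and 16.2% in bur against control. All 8 erythroid markers were lower in both laser-ablated and bur-drilled bone than in control bone, with medians of -2.42 and -2.42. The erythroid list mean was -1.44 to 0.46 on the laser arrays, -2.18 to 0.30 on the bur arrays and 0.17 to 2.64 on the control arrays. Of 7 tested neutrophil markers, 4 were lower in laser-ablated and 3 in bur-drilled bone. Of 6 T and NK cell markers, 4 were lower in each, and 1 was higher in bur-drilled bone. Of 6 B cell markers, 2 were lower in laser-ablated and 3 in bur-drilled bone, and of 5 endothelial markers 1 and 2 were lower. The adipocyte list had 3 of 3 tested markers lower in both. No Schwann cell marker was higher in either comparison beside the higher Piezo2, and 1 of 4 was lower in each. The part of these cells in the Panx1 and Piezo2 differences was not tested.

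The 4 called differences moved with single arrays. In fits without an array of the group not compared, the estimate stayed the same and only the p-value changed. Piezo2 in laser against control passed in 5 of 12 limma fits with a single array removed, and missed without laser replicate 1 (adjusted p = 0.0714), 2 (0.0938), 3 (0.0608) or 4 (0.0653) or control replicate 1 (0.0936), 2 (0.0541) or 4 (0.0824). Gja1 passed in 4 of 12, and missed without laser replicate 2 (0.0905), 3 (0.111) or 4 (0.101), bur replicate 1 (0.0613), 2 (0.0564) or 3 (0.0579), or control replicate 1 (0.130) or 4 (0.117). Panx3 passed in 7 of 12, and missed without laser replicate 2 (0.0944), 3 (0.0964) or 4 (0.0637) or control replicate 1 (0.110) or 4 (0.0855). Panx1 in bur against control passed in 8 of 12, and missed without bur replicate 3 (0.0564) or 4 (0.0506) or control replicate 1 (0.0615) or 4 (0.0541). Without control replicate 3, the array that stood apart, Panx1 passed in laser against control too, at -1.08 (adjusted p = 0.00728). In bur against control Piezo2, Gja1 and Pkd1 then joined Panx1, with adjusted p of 0.0198 for Piezo2, 0.0258 for Gja1 and 0.0372 for Pkd1.

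**Figure D4:**
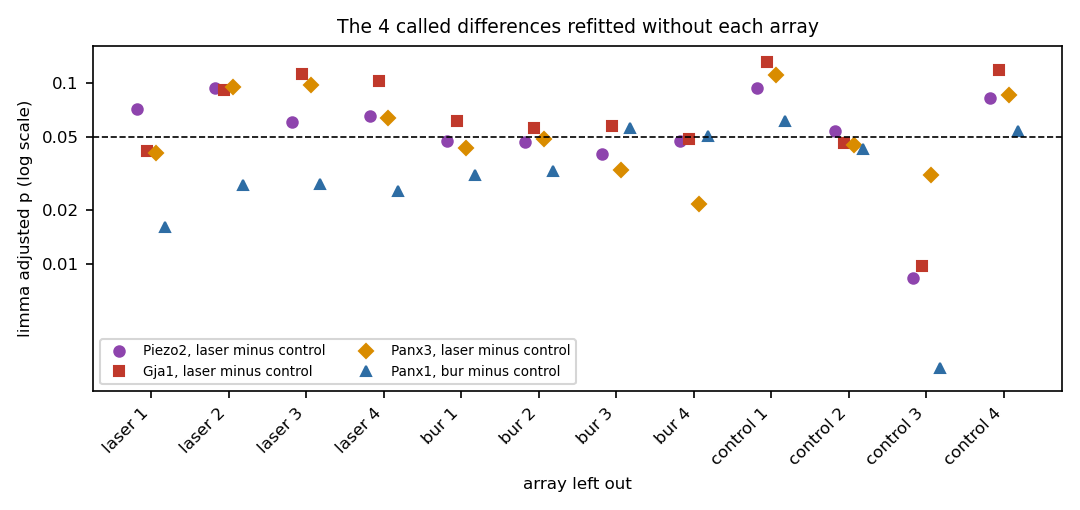
Limma adjusted p (y, log scale) of the 4 called differences when the array named on the x axis was left out of the fit, with the threshold of 0.05 dashed. Without control replicate 3 the points of Piezo2, Gja1 and Panx1 lie under 0.01, and without control replicate 1 or 4 all 4 lie above the threshold.

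The promoters of the called members with an entry in the RefSeq promoter table are shown for the sequence around their transcription start. Each runs from 250 bases before to 50 after the start on GRCr8, a later build than that of the probes. Both strands were searched for AP-1 (TGANTCA, in 7.33% of 33469 rat promoters of this length), RUNX (TGTGGT, 17.3%), Sp1 (GGGCGG, 33.1%), the TATA box (TATAAA, 14.2%) and CRE (TGACGTCA, 1.83%), none of which overlapped here. Capitals mark the matches, an AP-1 match whose first base is at -58 in Gja1 and Sp1 matches at -82 in Piezo2 and -121 in Panx1. A match is a string of letters, and no factor binding was measured.
Gja1 promoter, chr20:36302314-36302613 (GRCr8, plus strand): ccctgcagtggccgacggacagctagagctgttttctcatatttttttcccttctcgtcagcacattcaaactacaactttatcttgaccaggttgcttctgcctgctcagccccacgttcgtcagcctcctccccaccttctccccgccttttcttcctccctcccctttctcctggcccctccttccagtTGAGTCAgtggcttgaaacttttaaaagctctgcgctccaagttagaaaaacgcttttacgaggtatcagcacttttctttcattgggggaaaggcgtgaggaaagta
Piezo2 promoter, chr18:59115166-59115465 (GRCr8, minus strand): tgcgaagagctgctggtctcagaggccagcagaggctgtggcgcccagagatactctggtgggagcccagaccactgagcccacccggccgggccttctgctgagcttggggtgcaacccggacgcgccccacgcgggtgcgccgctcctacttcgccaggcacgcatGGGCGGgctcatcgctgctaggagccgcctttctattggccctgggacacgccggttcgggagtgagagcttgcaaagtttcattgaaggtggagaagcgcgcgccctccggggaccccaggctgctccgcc
Panx1 promoter, chr8:20171151-20171450 (GRCr8, minus strand): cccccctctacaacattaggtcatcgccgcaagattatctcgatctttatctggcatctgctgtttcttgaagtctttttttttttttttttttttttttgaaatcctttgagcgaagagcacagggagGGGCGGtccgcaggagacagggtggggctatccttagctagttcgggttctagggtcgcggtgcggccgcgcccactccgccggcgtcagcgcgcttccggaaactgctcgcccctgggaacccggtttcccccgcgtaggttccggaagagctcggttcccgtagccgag

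Of 76 tested genes in 5 lists related to the same machinery, 19.7% passed in laser-ablated against control bone and 25% in bur-drilled against control bone, near the 22.3% and 26.2% of all genes. Of 18 tested channels linked to mechanical signals, 2 were higher and 2 lower in laser-ablated than in control bone (22.2%), with a list median of 0.11 against 0.02 for all genes, and 2 were higher and 2 lower in bur-drilled bone (22.2%), with a median of -0.07. Trpv2, a calcium channel of macrophages and muscle, was higher by 1.22 in laser-ablated bone (limma adjusted p = 0.0181) and by 1.33 in bur-drilled bone (adjusted p = 0.00953). Trpm4, a calcium-activated cation channel, was higher by 1.30 in laser-ablated bone (adjusted p = 0.0271) and by 1.22 in bur-drilled bone (adjusted p = 0.0276), and by 0.50 and 0.47 with the normexp setting. It passed in 16 of 22 alternatives in each comparison. Trpm7, a channel fused to a kinase, had differences of -1.08 in laser-ablated and -1.37 in bur-drilled bone on its brighter probe, but 0.20 and 0.05 on its other probe. Kcnma1, the large calcium-activated potassium channel, had -0.996 and -1.57 on its brighter probe (-0.58 and -0.86 with normexp), but 0.44 and 0.68 on its other probe. Beside Trpv2 stood the macrophage markers, of which 3 of 7 were higher in laser-ablated and 5 of 7 in bur-drilled bone. The shares of all genes that were higher were 9.26% and 9.99%, and the part of these markers was not tested.

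Of 17 tested connexins, pannexins and junction partners, 2 were higher and 1 lower in laser-ablated bone (17.6%, median 0.35), and 1 was higher and 2 lower in bur-drilled bone (17.6%, median 0.02), against 22.3% and 26.2% of all genes. The junction scaffold Tjp1, which binds connexin 43, was higher by 0.72 in laser-ablated bone (limma adjusted p = 0.0299), and Cdh2, the cadherin of osteoblast contacts, by 0.75 (adjusted p = 0.0357). In bur against control Tjp1 differed by 0.57 and the 2 probes of Cdh2 by 0.22 and 0.59, and neither gene passed. In bur-drilled bone Gjc1 (connexin 45) was higher by 0.98 (adjusted p = 0.0304), and by 0.53 with normexp. In laser against control its 2 probes differed by 0.68 and 0.89, and the gene did not pass. Gja3, a lens connexin, differed by -0.98 in bur-drilled bone on its brighter probe (-0.19 with normexp) and by 0.28 on its other probe.

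Of 20 tested genes of ATP and adenosine signalling, 1 was higher and 5 lower in laser-ablated bone, and 2 were higher and 4 lower in bur-drilled bone, with medians of 0.13 and -0.05. That is 30% in each, against 22.3% and 26.2% of all genes. Adora1, an adenosine receptor, had differences of -1.82 in laser-ablated (limma adjusted p = 0.0110) and -1.87 in bur-drilled bone (adjusted p = 0.00655) on its brighter probe, but -0.45 and -0.33 on its other probe. With normexp the brighter probe gave -1.12 and -1.13. Entpd2, an enzyme that cleaves extracellular ATP, had -1.44 (adjusted p = 0.0156) and -1.43 (adjusted p = 0.0111). P2rx2, an ATP-gated channel, and P2ry4, a nucleotide receptor, were each well above background on 1 laser array, against 3 control arrays, so the sizes of their differences in laser against control are uncertain. These were -1.37 for P2rx2 and -1.53 for P2ry4, but -0.20 and -0.17 with normexp. P2ry4 was well above background on no bur array, and passed the background filter mostly through control bone. Its calls are therefore not read as lower levels in cut bone, though it is counted among the 5 and 4 lower genes. The size of its difference in bur against control is uncertain as well. That difference was -1.26 on the log2 scale, but -0.18 with normexp. P2ry6, a UDP receptor of macrophages, was higher by 1.40 in bur-drilled bone on its brighter probe (adjusted p = 0.0210) and differed by 0.46 on its other probe, beside the macrophage markers given above. In laser-ablated bone its differences on these probes were 1.35 and 0.55, so the change was not particular to bur-drilled bone.

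Of 8 tested ciliary genes, 0 passed in laser-ablated bone and 2 were higher in bur-drilled bone (25%, against 26.2% of all genes), with medians of 0.06 and 0.01. They were Arl13b, a small GTPase of the ciliary membrane, at 0.80 on its brighter probe (limma adjusted p = 0.0374) and 0.23 on its other probe, and Kif3a, a motor of ciliary transport, at 0.44 (adjusted p = 0.0355). In laser-ablated bone Arl13b was at 0.67 (adjusted p = 0.0736), and with normexp at 0.30 in laser-ablated and 0.40 in bur-drilled bone. Of 13 genes known to answer load in bone, 1 was higher and 1 lower in laser-ablated bone (15.4%), and 2 were higher and 2 lower in bur-drilled bone (30.8%). Of all genes, 22.3% and 26.2% passed. The list medians were 0.12 and 0.37, against 0.02 and -0.000097 for all genes. Fos, an early gene of the AP-1 factor, was higher by 1.87 in laser-ablated (adjusted p = 0.0239) and by 2.33 in bur-drilled bone (adjusted p = 0.00893), and by 0.75 and 1.05 with normexp. The prostaglandin E2 receptor Ptger4 had -0.77 (adjusted p = 0.0240) and -0.64 (adjusted p = 0.0366), and its relative Ptger2 was higher by 1.35 in bur-drilled bone (adjusted p = 0.0203), or 0.57 with normexp. In laser against control Ptger2 differed by 0.96 and did not pass. Egr1, another early gene, had -0.57 in bur-drilled bone on its brighter probe (adjusted p = 0.0368), and 0.24 on its other probe. Between laser-ablated and bur-drilled bone 0 of the 76 tested genes of these lists passed.

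**Figure D5:**
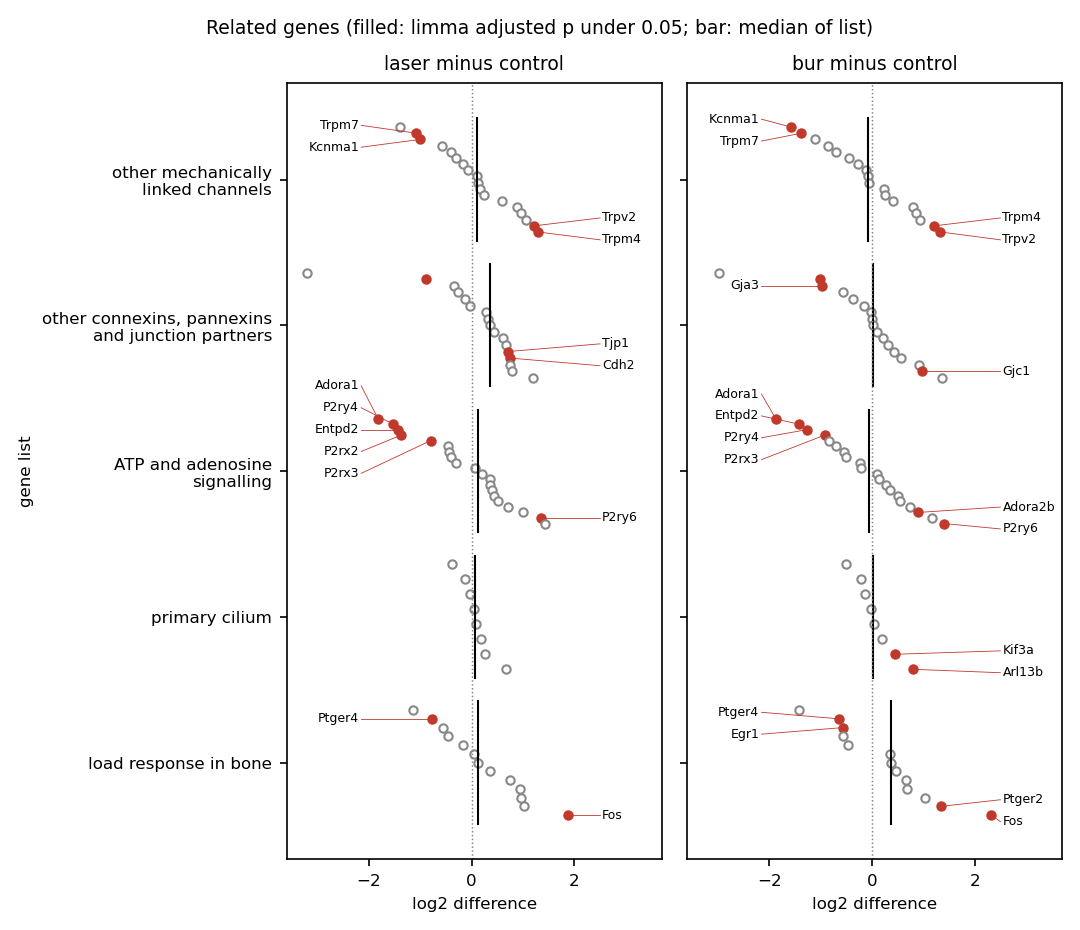
Log2 differences (x) of the tested genes of 5 lists (y), in laser minus control and bur minus control, with filled points, named where reported, where the limma adjusted p was under 0.05 and a bar at the median of each list. Fos lies furthest to the right among the named genes in both panels, and Adora1 furthest to the left.

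The genes with profiles most like those of the called members were found by the root mean square difference over the 12 arrays, each gene centred on its own mean. For Gja1 they were Sec16b (0.126), P3h4 (0.134) and Tmem263 (0.139), and for Panx1 they were Adipor1 (0.135), the endoplasmic reticulum calcium sensor Stim1 (0.135) and Tsc22d4 (0.145). For Piezo2 they were Plekhh2 (0.230), the Notch ligand Jag1 (0.230) and Xylb (0.241). For Panx3 the nearest were Lipi (0.684), Cdh22 (0.751) and Map3k21 (0.792). These distances are in log2 units, and Panx3 also varied most over the arrays, with an SD of 1.47, against 0.54 to 0.65 for the other called members. Lipi was well above background on 0 control arrays.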

How the data were processed

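Total RNA of 12 rat calvarial samples was hybridised to 1-colour Agilent arrays, and the authors' scanner files hold linear intensity per spot, made with Agilent Feature Extraction 11.0.1.1 per the submitters' processing notes. The deposited value table holds the authors' log2 values, centred per probe, used as an alternative, and the authors' deposited comparison table holds log2 changes and p-values, quoted where named. The sources used here do not give how the authors normalised those tables. Probe coordinates are on rn4 per the file headers.

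Outlier spots were left out, spots of a probe averaged, and log2 processed signal taken relative to the 75th percentile of each array. Genes were kept where a probe was well above background on at least 4 arrays, and the brightest kept probe stood for the gene. All 3 groups were fitted together with limma 3.58.1 (lmFit and eBayes, R 4.3.3), with Benjamini-Hochberg adjustment over 22718 genes and a threshold of 0.05. The fit was tested on simulated data. The number of arrays limits the precision.

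The members and the 5 related and 14 marker lists were chosen with earlier results of these data known. All members were named, with up to 4 passing genes of largest change per related list and comparison, or the smallest p where none passed, and the 3 genes most like each called member. Array symbols can be old. Same-numbered arrays deviated together in laser and control (r = 0.13 to 0.34) and in laser and bur (0.16 to 0.34), and less so in bur and control (-0.05 to 0.28). The replicate number equals the slide row in every group, and the labels do not say what it marks. In the junction list, 1 gene is counted but not reported here.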

Additional observations from a re-analysis of the deposited data

How the results depend on the processing

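In laser against control, 3 members passed. None passed without the background filter, where 34912 genes were tested, and 1 passed (Panx3) with only the compared groups fitted. Leaving out single arrays gave 0 to 4. In bur against control, 1 member passed, against 2 with the normexp setting, 2 with the mean of probes and 3 with the deposited log2 values, and 0 to 4 when single arrays were left out. The mean of probes added Piezo2 there. For Piezo2 that mean takes in the upstream probe, which passed the background filter mostly through cut bone. With the replicate number as a block, laser against control gave 3 (Piezo2, Panx3 and Panx1, but not Gja1) and bur against control gave 1. Between laser and bur 0 passed in every setting run. Of 23 alternatives each, in laser against control Piezo2 passed in 13, Gja1 in 11, Panx3 in 17 and Panx1 in 6, and Panx1 in bur against control passed in 18, with no change of sign in these 5. With normexp the size of 17 of 30 called differences of the named related genes moved by over 1.5 times, with 0 changes of sign, and so did Panx3 in laser against control (1.6, against 2.5) and Panx1 in bur against control (-0.66, against -1.1).

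Signs turned for 3 small differences. Trpv4 in bur against control turned to 0.019 with normexp, 0.055 with quantile normalisation and 0.063 with the percentile over detected probes, and ran from -0.27 to 0.20 when single arrays were left out. Piezo1 in bur against control turned to -0.059 with array weights, and ran from -0.00076 to 0.098 when single arrays were left out. Pkd2 in laser against bur turned to -0.019 with normexp, -0.0015 with quantile normalisation, -0.0057 with the percentile over detected probes, -0.031 with the deposited log2 values and -0.025 with array weights, and ran from -0.090 to 0.062 when single arrays were left out. Why calls and signs changed between settings was not tested.

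The count over all genes was 5061 in laser against control and ran from 1245 without control replicate 1 to 7994 without control replicate 3. In bur against control it was 5948 and ran from 2789 to 8397 under the same 2 omissions. Of the 76 related genes, 15 passed in laser against control (4 without laser replicate 2, 23 without control replicate 3) and 19 in bur against control (11 without bur replicate 1, 28 with array weights). Of 22 alternatives each in laser against control, Cdh2 passed in 14, Tjp1 in 15 and Kcnma1 in 13. In bur against control Gjc1, Arl13b and Kif3a passed in 14 and Egr1 in 12, while Adora1 passed in 22 in both comparisons. P2rx7 and the upstream Piezo2 probe in control bone were limited by signal near background.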

Other observations

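Control bone was the most variable group for 7 of the 8 tested members, all but Panx3. Over all tested genes the SD was largest in control bone for 53.3%. For 6 of the 8 members, all but Piezo1 and Panx3, control replicate 3 was the control array nearest to the mean of the 8 arrays of cut bone. By Dixon's test at 95%, 0 of the 24 groups of 4 values of the members held an array that stood apart.

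The connexin Gjb6, picked here after its values were seen, had a log2 difference of -3.20 in laser against control (limma adjusted p = 0.108) and of -2.97 in bur against control (adjusted p = 0.125), both outside the threshold.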
